A study of Bubalus bubalis with 6 samples.

Results

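The genes described here encode the hnRNPs, the SR proteins and the protein parts of the spliceosomal particles in buffalo muscle stem cells (MuSCs). The members are every protein-coding row of the deposited gene table whose symbol begins with HNRNP, SRSF, SNRP or SF3, a rule that uses no measured value. The rule found 48 rows with 46 symbols among 24616 listed genes, and 47 of the 48 rows reached the minimum of 10 counts in total over the 6 samples. They fall into 15 hnRNP genes, 11 SR protein genes, 10 rows for Sm core proteins, 4 genes for proteins particular to the U1 and U2 particles, and 8 genes of the SF3A and SF3B complexes. HNRNPA1, HNRNPC, HNRNPF, HNRNPDL, HNRNPUL2, SRSF8 and SF3B4 were not analysed here.

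Introns are removed from a pre-mRNA by the spliceosome, which is built on the transcript from small nuclear RNAs and their proteins. The Sm proteins form a ring around the small nuclear RNAs, U1 marks the 5′ splice site, and U2, with SF3A and SF3B, engages the branch point. SR proteins bind exons and mostly promote the use of nearby splice sites, whereas hnRNPs coat the transcript and often oppose it. Muscle is a tissue with many regulated exons, and the balance between these proteins is one of the things that sets which exons are kept.

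The study compared primary water buffalo (Bubalus bubalis) MuSCs, taken from fetal longissimus muscle, in 2 states. The 3 GM samples were proliferating cells in growth medium, and the 3 DM samples were cells moved to a low-serum differentiation medium with horse serum, in which myoblasts leave the cell cycle and fuse. The paper describes its tissues as taken from Chinese buffalo at an embryonic stage. It describes differentiation over several days, and the exact day of RNA sampling is not given in the sources used here. No gene was altered in either group, and the strain, the number of fetuses and whether each sample was a culture of its own are not given in the sources used here, so p-values measure only the spread between these samples. Polyadenylated RNA was sequenced, and reads counted on genes came to between 35615864 and 40305237 per sample. Levels are given as CPM, the counts relative to a library size scaled by the TMM method, or as the authors' RPKM, which also divides by gene length, where genes are set against each other. Fold changes are DM over GM on the log2 scale with their standard error (SE). Unless another test, filter or table is named, adjusted p-values come from edgeR's quasi-likelihood test over 15576 tested genes with Benjamini-Hochberg adjustment.

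The cell states differed in markers other than the splicing genes. All 6 proliferation markers fell, and their summed level was 1673–1707 CPM in the 3 GM samples and 354–426 CPM in the 3 DM samples. All 6 myotube markers that were tested rose, from a summed 358–734 to 4050–5629 CPM. Among the MuSC and myoblast markers, PAX7, MYF5, ITGA7 and CDH15 fell, MYOD1 rose and DES did not pass the test, with sums of 2733–2978 and 2028–2609 CPM. All 6 fibroblast markers also rose, from a summed 24827–25051 to 77006–96951 CPM, mostly COL1A1 and COL3A1. Endothelial, blood, adipocyte and Schwann cell markers summed to no more than 8.92 CPM per list in any sample, and no marker analysed was at 0 in all 6 samples. The part of these changes in the results below was not tested, and in bulk samples fewer cells of a type and less RNA per cell cannot be told apart. DM replicate 3 stood apart from the other DM samples, with chi-square values between their gene counts of 40.5 and 41.3 for each degree of freedom, against 11.7 between DM replicates 1 and 2 and 6.21 to 10.6 between GM samples.

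Most of the splicing protein genes fell in DM. With an adjusted p under 0.05 and no minimum fold, 40 of the 47 tested rows were lower in DM samples, or 85.1%, whereas 31.4% of all tested genes were lower and 63.0% changed in either direction. Another 2, HNRNPLL and SF3B1, were higher, against 31.6% of all tested genes. The 5 that did not pass were HNRNPH2, SRSF5, SRSF11, SRSF12 and SNRPN. Adding a minimum of 2-fold left 19 members lower (40.4%) and none higher, against 10.3% of all tested genes lower, 15.0% higher and 25.3% in either direction. The median log2 fold change was −0.88 over the members and 0.03 over all tested genes. Only SRSF11 and SRSF12 had GM and DM samples that overlapped, so 45 of 47 did not, or 95.7%, against 68.8% of all tested genes. Without DM replicate 3, 39 members were lower, 2 higher and 19 lower by at least 2-fold. Over all genes, 5053 were then lower, 5208 higher and 1631 lower by at least 2-fold, against 4893, 4920 and 1606 with all samples.

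The members are mostly abundant genes, for which small differences are easier to detect. Of the 47, 42 had a mean count of at least 1000, and 36 of those 42 were lower in DM, 17 by at least 2-fold. Among all 5906 genes of that depth, 46.4% were lower and 9.40% lower by at least 2-fold. The spread between samples was small, with a median coefficient of variation over the members of 3.60% in GM and 4.43% in DM. The extent of the fall was uneven. While 19 members fell by more than 1 on the log2 scale, 18 changed by between −1 and −0.5, 6 lay between −0.5 and 0 (of which SRSF4, SRSF6 and SF3B6 passed the test), and 4 were above 0. HNRNPM at −1.02, SF3B3 at −1.02 and SRSF3 at −1.03 lay just inside the 2-fold limit, and HNRNPA3 and SF3A1, both at −0.95, just outside it. Leaving out a single library put HNRNPM (GM replicate 2 or DM replicate 2), SF3B3 (GM replicate 1 or DM replicate 2) and SRSF3 (DM replicate 1) on the other side of that limit. The log2 fold changes were then −0.996 and −0.994 for HNRNPM, −0.9997 and −0.981 for SF3B3 and −0.972 for SRSF3, and each kept an adjusted p under 0.05.

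**Figure D1:**
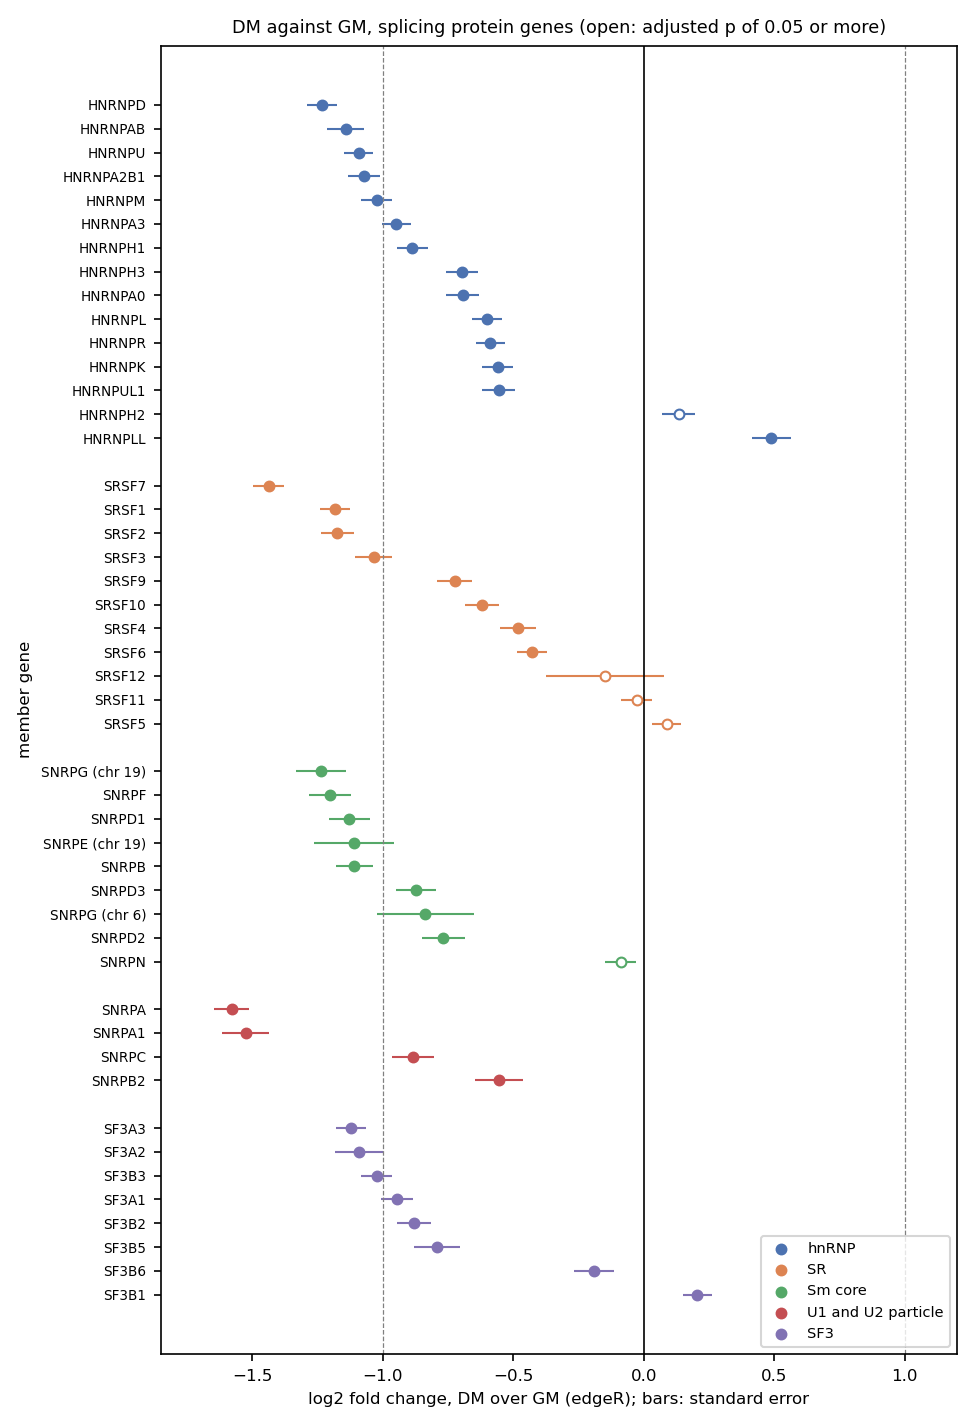
Log2 fold change of DM over GM for the 47 tested members, grouped by role, with bars of 1 standard error. Filled points passed an adjusted p of 0.05 and open points did not, and the dashed lines mark a 2-fold change. Most points lie left of 0, from −1.58 for SNRPA to 0.49 for HNRNPLL.

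Taken as a share of all gene counts, the members together held 1.33, 1.38 and 1.35% in the GM samples and 0.693, 0.738 and 0.723% in the DM samples. The DM share was 0.532 times the GM share. All 5 role groups had a lower share in every DM sample than in any GM sample. The members of the U1 and U2 group showed the lowest ratio, 0.394 ± 0.018, from a mean of 0.0287% to 0.0113%. SNRNP70, a U1 protein gene whose symbol the rule does not take, is not in that group. Its mean was 239 CPM in GM and 168 CPM in DM (log2 fold change −0.51). The group summed to 270–281 CPM in GM and 112–120 CPM in DM, so its ratio is not that of all U1 and U2 proteins. The SF3 genes showed the highest, 0.636 ± 0.011, from 0.162% to 0.103%. That sum includes SF3B1, which rose from a mean of 387 CPM to 446 CPM. The SF3 group summed to 1558–1581 CPM in GM and 1062–1073 CPM in DM, so its ratio is not that of its other genes. By median log2 fold change SF3 (−0.91) was lower than the hnRNP (−0.70) and SR genes (−0.62). The hnRNP genes, which held most of the members' counts, went from 0.821% to 0.423% (ratio 0.515 ± 0.023). SR protein genes went from 0.260% to 0.141% (0.545 ± 0.017) and Sm core genes from 0.0783% to 0.0392% (0.500 ± 0.033). A few very abundant genes took more of the DM libraries. With the 50 genes of highest mean count left out, none of them a member, the ratio for all members was 0.595. The ± after a ratio is an SD carried over from the SDs of the GM and DM shares, not a spread of observed ratios. These shares carry no test.

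**Figure D2:**
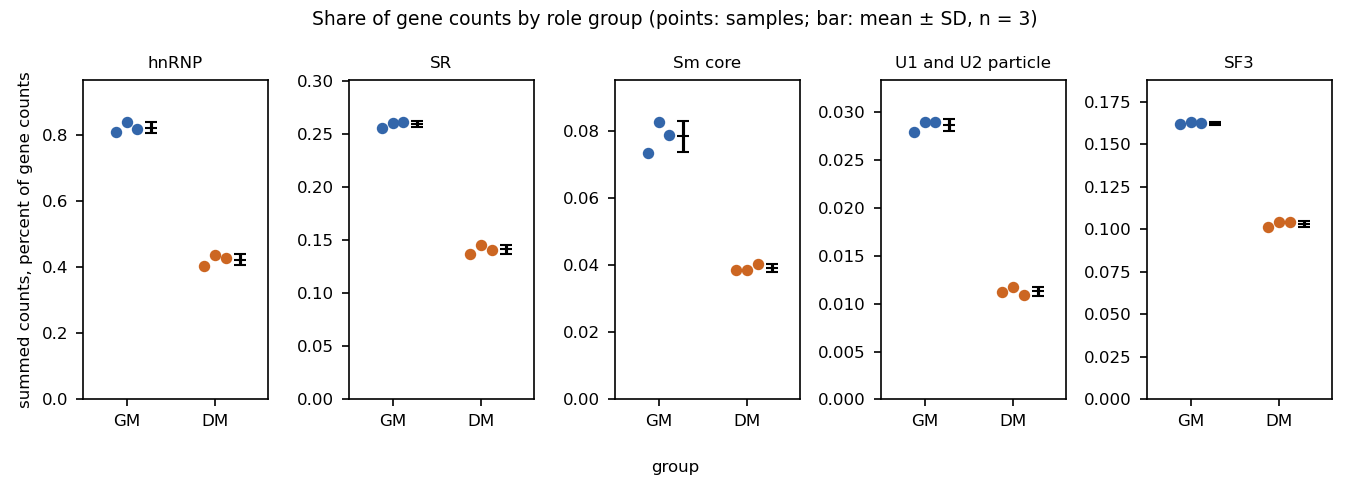
Summed counts of each role group as a percent of all gene counts, a panel per group with its own vertical axis from 0. Points are the 3 GM and 3 DM samples and the bar beside them is the mean ± SD. In each panel the 3 DM points lie below the 3 GM points.

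Among the hnRNP genes, 13 of 15 fell, 1 rose and 1 did not pass, with a median log2 fold change of −0.70. HNRNPA2B1, which binds many nuclear transcripts and also sorts RNAs to other parts of the cell, had the highest RPKM of all members in both groups. It is listed on chromosome 4, from 70198053 to 70207085 on the plus strand, and its level was 1053, 1104 and 1080 CPM in the GM samples and 488, 532 and 521 CPM in the DM samples. The groups did not overlap, and the log2 fold change was −1.07 (SE 0.06, adjusted p = 1.19e-07). On the per-length scale it went from 674 ± 14 to 300 ± 19 RPKM (SD, n = 3) and kept its place as the highest member.

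HNRNPD, known as AUF1 for its binding to AU-rich elements of unstable mRNAs, had the largest change of the hnRNP genes. It was at 582, 598 and 571 CPM in GM and 241, 244 and 259 CPM in DM, a log2 fold change of −1.23 (SE 0.06, adjusted p = 4.22e-08). Every DM sample was thus under 50% of every GM sample. HNRNPU, a chromatin- and RNA-binding scaffold protein of the nucleus, fell from 798, 815 and 804 CPM to 366, 385 and 383 CPM. HNRNPAB fell from 724, 834 and 729 CPM to 333, 352 and 352 CPM, with GM replicate 2 the highest. HNRNPM, a regulator of alternative exons, fell from 934, 1003 and 966 CPM to 487, 468 and 474 CPM. All 3 were tightly grouped in DM, with log2 fold changes of −1.09, −1.14 and −1.02. By this fall HNRNPAB passed from the second place among the hnRNP genes by mean RPKM in GM to the third in DM, behind HNRNPK.

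A smaller change was seen in other hnRNP genes. HNRNPK, a poly(C)-binding protein, was at 880, 869 and 884 CPM in GM and 566, 617 and 604 CPM in DM, a log2 fold change of −0.56 (SE 0.06, adjusted p = 1.18e-05). Between −0.56 and −0.95 also lay HNRNPA3, HNRNPH1, HNRNPH3, HNRNPA0, HNRNPL, HNRNPR and HNRNPUL1, each without overlap between the groups.

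HNRNPLL went the other way. This paralogue of HNRNPL is best known for repressing exons of the CD45 gene in activated T cells, and it had the lowest RPKM of the hnRNP genes in both groups. Its level was 57.8, 60.1 and 54.7 CPM in GM and 78.0, 88.3 and 75.9 CPM in DM, a log2 fold change of 0.49 (SE 0.08, adjusted p = 0.000223). All 3 DM samples were above all 3 GM samples, and leaving out any single library kept it between 0.44 and 0.54. HNRNPH2, a paralogue of HNRNPH1 that binds G-rich RNA, was at 77.3, 72.4 and 79.4 CPM in GM and 86.1, 83.4 and 81.9 CPM in DM, with a log2 fold change of 0.14 (SE 0.06) that did not pass (adjusted p = 0.0868).

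**Figure D3:**
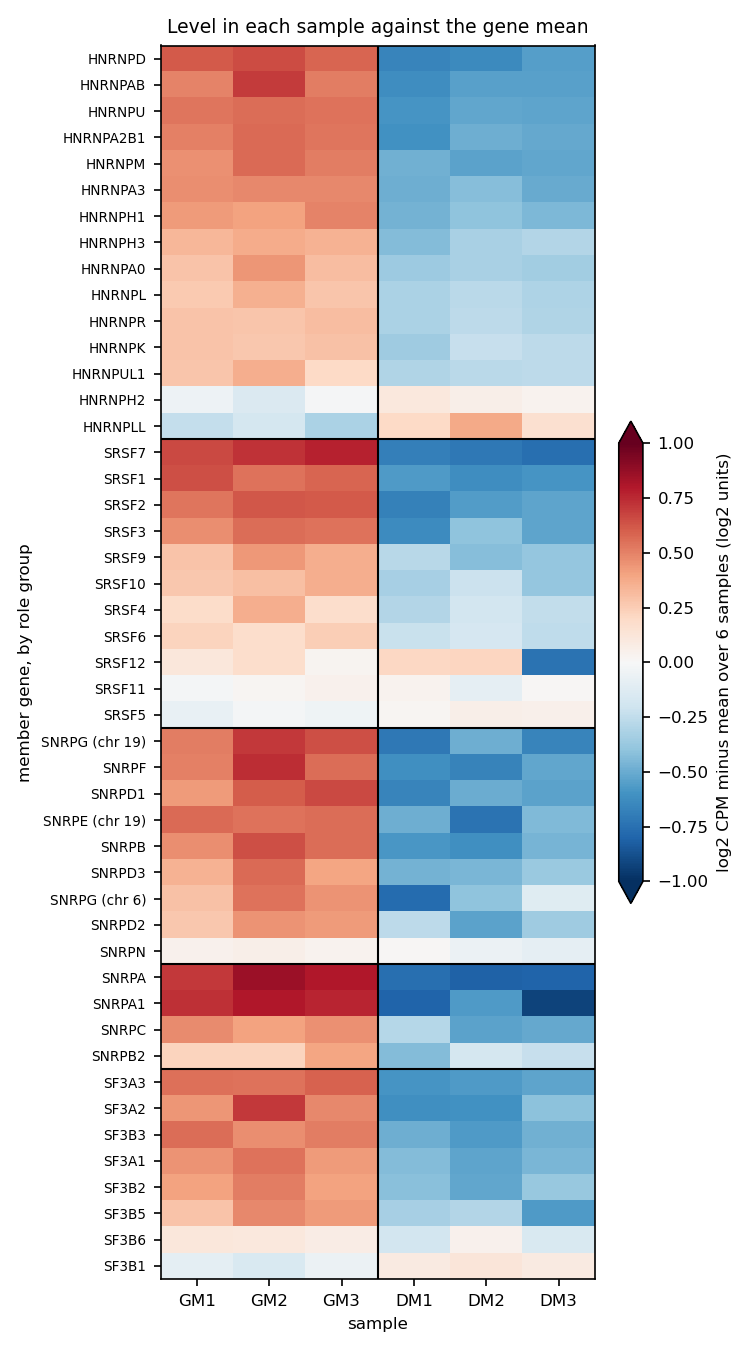
Level of each tested member in each sample, as log2 CPM minus the mean of that gene over the 6 samples, with red above and blue below the mean. Horizontal lines part the role groups and the vertical line parts GM from DM. HNRNPLL and SF3B1, and by less HNRNPH2 and SRSF5, are below their mean in GM and above it in DM, opposite to most rows. SRSF12 is low only in DM replicate 3.

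Of the SR protein genes, 8 of 11 fell, none rose and 3 did not pass, with a median of −0.62. SRSF7, an SR protein with a zinc knuckle, changed most. It is listed on chromosome 11, from 21105343 to 21110797, and was at 191, 200 and 206 CPM in GM and 75.2, 73.5 and 71.9 CPM in DM. The log2 fold change was −1.44 (SE 0.06, adjusted p = 1.85e-08), a level 2.71-fold lower in DM. HNRNPLL, which rose, is listed on the same chromosome, from 20929508 to 20967132.

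SRSF1, the founding member of the family, was at 500, 467 and 479 CPM in GM and 217, 208 and 213 CPM in DM (log2 fold change −1.18, SE 0.06, adjusted p = 4.87e-08). SRSF2, a component of nuclear speckles long used as their marker, fell from 469, 497 and 494 CPM to 203, 219 and 225 CPM (−1.17). SRSF3, which also takes part in mRNA export and had the highest RPKM of the SR genes in both groups, fell from 251, 268 and 265 CPM to 118, 138 and 127 CPM (−1.03). Together with SRSF7 these were the SR genes that fell by at least 2-fold. SRSF9, second by RPKM, fell from 192, 212 and 202 CPM to 129, 117 and 120 CPM (−0.72). SRSF10, SRSF4 and SRSF6 fell with log2 fold changes of −0.62, −0.48 and −0.43.

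The 3 SR genes that did not pass were named after their values were seen. SRSF5 was at 118, 123 and 120 CPM in GM and 126, 129 and 129 CPM in DM, with a log2 fold change of 0.09 (SE 0.06, adjusted p = 0.194). SRSF11, which carries an SR domain and binds splicing factors of the 3′ splice site, was at 140, 144 and 147 CPM in GM and 146, 134 and 143 CPM in DM (−0.03, SE 0.06, adjusted p = 0.716), so its groups overlapped. SRSF12 was the SR gene of lowest level, at 6.68, 6.97 and 6.28 CPM in GM and 7.14, 7.16 and 3.70 CPM in DM (−0.15, SE 0.23, adjusted p = 0.591). Its direction rested on DM replicate 3, without which the log2 fold change was 0.11. In DM the ranks by mean RPKM within the SR family differed from those in GM, since SRSF11 and SRSF5 stood above SRSF1, SRSF2 and SRSF7 in DM and below all 3 in GM.

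**Figure D4:**
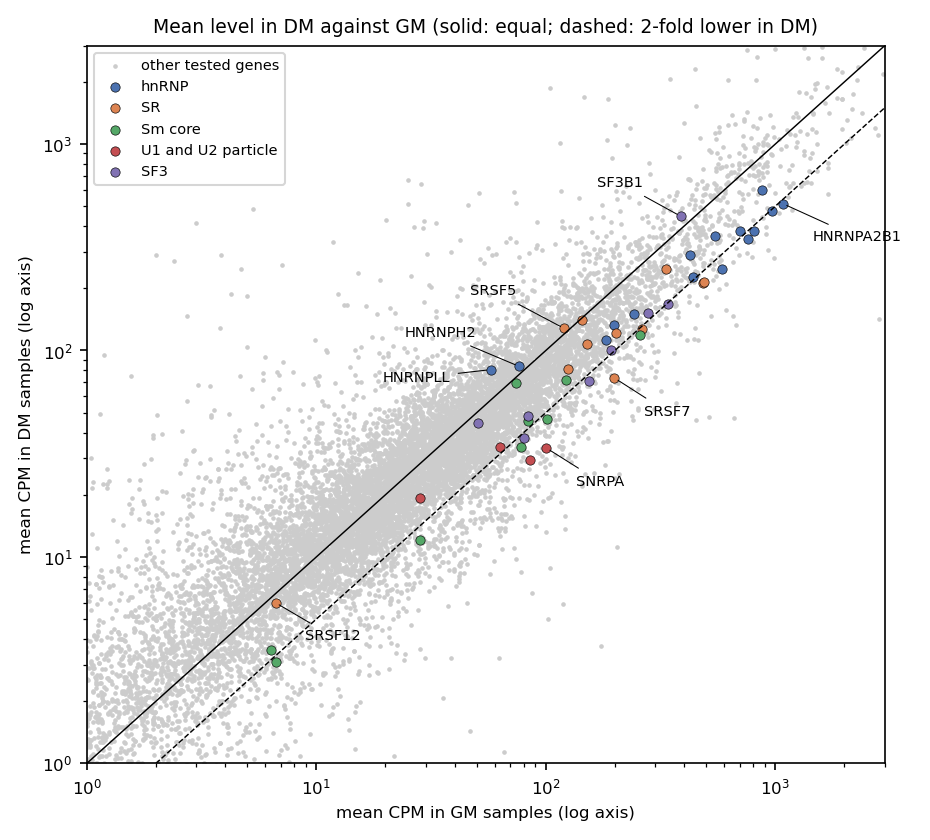
Mean CPM in DM against mean CPM in GM for each tested gene, both axes logarithmic and cut to the range that holds the members, with members coloured by role. The solid line marks equal levels and the dashed line a level 2-fold lower in DM. Most members lie near the dashed line, while HNRNPLL and SF3B1, and by less HNRNPH2 and SRSF5, lie above the solid one.

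In the Sm core, 8 of 9 tested rows fell and 1 did not pass, with a median of −1.11. These values include the tested SNRPE and SNRPG rows, whose levels are uncertain for a reason given below. SNRPB, which encodes the B proteins of the ring, was at 240, 273 and 256 CPM in GM and 116, 114 and 127 CPM in DM (−1.11, SE 0.07, adjusted p = 2.80e-07). SNRPF fell from 72.8, 85.8 and 75.7 CPM to 33.7, 32.3 and 35.8 CPM (−1.20), and SNRPD1 from 91.7, 104 and 108 CPM to 43.4, 48.4 and 47.3 CPM (−1.13). SNRPD3 and SNRPD2, with log2 fold changes of −0.87 and −0.77, changed by less than 2-fold. SNRPD2, at 113, 128 and 126 CPM in GM and 78.2, 64.4 and 72.9 CPM in DM, had a higher mean RPKM than SNRPB in DM and a lower one in GM. SNRPN is the paralogue of SNRPB that is imprinted in mammals and is most expressed in brain. It was at 73.7, 74.7 and 73.3 CPM in GM and 72.3, 68.7 and 67.4 CPM in DM, and its log2 fold change of −0.09 (SE 0.06) did not pass (adjusted p = 0.229).

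SNRPE and SNRPG are each listed on 2 rows. On these 4 rows, and for HNRNPA0, the listed interval is as long as the gene length, so no intron is listed. Reads from near-identical copies elsewhere could be split among such rows, and their values are uncertain for that reason. The SNRPG row on chromosome 19 (12231223 to 12231584) fell from 26.3, 30.1 and 28.8 CPM to 11.3, 13.2 and 11.7 CPM, a log2 fold change of −1.24 (SE 0.10, adjusted p = 1.11e-06). The SNRPG row on chromosome 6 was at 5.74, 6.83 and 6.41 CPM in GM and 2.75, 3.55 and 4.30 CPM in DM (−0.84, SE 0.19). The SNRPE row on chromosome 19 was at 6.70, 6.61 and 6.67 CPM in GM and 3.23, 2.71 and 3.32 CPM in DM (−1.11, SE 0.15). The 3 rows fell, without overlap between the groups. The SNRPE row on chromosome X had 1 count in all 6 samples and was not tested.

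All 4 member genes for proteins particular to U1 or U2 fell, with a median of −1.20. SNRPA, which encodes a U1 protein that binds a loop of the U1 RNA, showed the largest fall of all members. It is listed on chromosome 18, from 50299426 to 50310253, and was at 94.8, 105 and 101 CPM in GM and 34.5, 33.1 and 33.3 CPM in DM. The log2 fold change was −1.58 (SE 0.07, adjusted p = 2.04e-08), a level 2.99-fold lower in DM. SNRPA1, which encodes a leucine-rich protein of U2, came next, with 83.0, 87.0 and 84.9 CPM in GM and 28.7, 33.7 and 26.2 CPM in DM (−1.52, SE 0.09, adjusted p = 1.78e-07). Both genes were also lower by more than 2-fold in a test against a 2-fold change, as were SRSF7, HNRNPD, SRSF1, SRSF2, SNRPF and the SNRPG row on chromosome 19, 8 members in all. SNRPC, which encodes a zinc finger protein that helps U1 bind the 5′ splice site, fell from 64.5, 61.2 and 63.7 CPM to 38.1, 32.0 and 32.7 CPM (−0.88). SNRPB2, whose protein binds U2 RNA together with that of SNRPA1, fell least of the 4, from 27.3, 27.2 and 30.7 CPM to 17.4, 20.7 and 19.9 CPM (−0.56).

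In the SF3 group, 7 of 8 genes fell and 1 rose, with a median of −0.91. All 3 SF3A subunits were lower. SF3A3 was at 154, 153 and 158 CPM in GM and 70.0, 71.0 and 72.9 CPM in DM (−1.12, SE 0.06, adjusted p = 6.38e-08). SF3A2 fell from 74.3, 89.4 and 76.6 CPM to 35.8, 35.9 and 41.1 CPM (−1.09), and SF3A1 had a log2 fold change of −0.95. Of the SF3B subunits, SF3B3 fell from 351, 329 and 340 CPM to 170, 161 and 171 CPM (−1.02), SF3B2 from 273, 294 and 273 CPM to 154, 144 and 158 CPM (−0.88), and SF3B5, a small subunit with the highest RPKM of the group, from 77.0, 88.0 and 85.0 CPM to 50.2, 51.5 and 42.8 CPM (−0.79).

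SF3B1, the large scaffold subunit that holds the branch point helix, was the exception in SF3. Its level was 388, 375 and 399 CPM in GM and 443, 453 and 443 CPM in DM, and the groups did not overlap. The log2 fold change was 0.21 (SE 0.06, adjusted p = 0.00834), and when TMM was replaced by plain library size it was 0.11 and did not pass (adjusted p = 0.123). SF3B6, the subunit that contacts the branch point adenosine, was at 51.2, 50.8 and 49.7 CPM in GM and 41.8, 48.6 and 42.6 CPM in DM, a log2 fold change of −0.19 (SE 0.08) close to the threshold (adjusted p = 0.0469). It did not pass without DM replicate 1 (adjusted p = 0.151), DM replicate 3 (0.0852) or any of GM replicates 1 to 3 (0.0911 to 0.116). By mean RPKM, SF3B1 stood at the seventh place of the 8 SF3 genes in GM and at the second in DM.

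The uneven changes altered the proportions between related members. For 6 pairs, chosen after the values were seen and therefore not tested, the ratio of RPKM values was taken in each sample. SF3B1 over SF3B3 was 0.743, 0.766 and 0.787 in GM and 1.75, 1.89 and 1.74 in DM, so the pair changed order by RPKM. SRSF5 over SRSF1 was 0.439, 0.489 and 0.468 in GM and 1.08, 1.16 and 1.13 in DM. SRSF11 over SRSF7 was 0.504, 0.495 and 0.490 in GM and 1.34, 1.25 and 1.37 in DM. In both SR pairs the first gene was the lower by RPKM in every GM sample and the higher in every DM sample. For SF3B1 and SRSF5 the change of order rests on the deposited gene lengths. By CPM, SF3B1 was above SF3B3 in GM too (388, 375 and 399 against 351, 329 and 340). SRSF5 stayed below SRSF1 by CPM in DM (126, 129 and 129 against 217, 208 and 213). SRSF11 and SRSF7 changed order by CPM as well. The ratio of HNRNPLL to HNRNPL went from 0.0886 ± 0.0028 to 0.188 ± 0.012, that of HNRNPH2 to HNRNPH1 from 0.0984 ± 0.0025 to 0.200 ± 0.008, and that of SNRPN to SNRPB from 0.232 ± 0.013 to 0.471 ± 0.038 (SD, n = 3). In these 3 pairs the less abundant paralogue stayed the less abundant. The 6 ratios were between 2.03 and 2.66 times as high in DM as in GM.

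**Figure D5:**
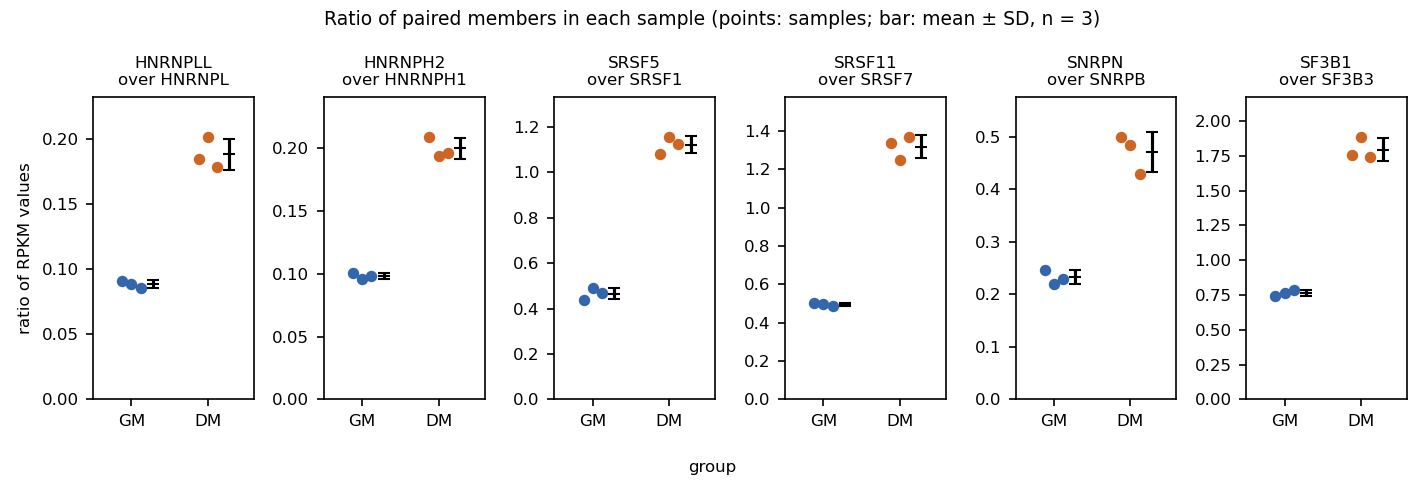
Ratio of the RPKM values of 2 related members in each sample, a panel per pair with its own vertical axis from 0. Points are samples and the bar is the mean ± SD. In all 6 panels the 3 DM points lie above the 3 GM points.

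The transcript table lists 50 mRNA transcripts for the 48 rows. For 46 of them a single transcript is listed, with counts identical to those of the gene, so the table adds no view of alternative exons for these genes. Of the 49 transcripts tested, 42 were lower in DM and 2 were higher at an adjusted p under 0.05, against 32.3% of all tested transcripts in each direction. HNRNPD and HNRNPM each have 2 listed transcripts, which overlap and share reads. The shorter HNRNPD transcript carried 88.9, 88.8 and 88.8% of the counts of the gene in GM and 90.2, 90.1 and 89.7% in DM. The shorter HNRNPM transcript carried 72.8, 73.6 and 74.2% in GM and 72.8, 71.7 and 72.3% in DM, with overlap between the groups. Both transcripts of HNRNPD (−1.25 and −1.23) and both of HNRNPM (−1.04 and −1.07) fell.

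Some members share their interval with other listed genes. METTL23 lies on the opposite strand of SRSF2 and had 110 to 165 counts per sample, and without a stated use of strand reads of the overlap cannot be told apart. bta-mir-7-2 lies within HNRNPK, with 16 to 46 counts and a log2 fold change of −0.22 (adjusted p = 0.639). SNORD64 lies within SNRPB, with 13, 5 and 3 counts in GM and 2, 0 and 1 counts in DM (adjusted p = 0.0479). These counts are small beside those of the host genes. Of 1222 rows typed as small nuclear RNA, 156 had a count, and together they had 73 to 100 counts per GM sample and 78 to 109 per DM sample. The RNA partners of the Sm proteins lack a poly(A) tail. Of these rows 11 were tested, and 1, a U2 row, was higher in DM (0.114 and 0.364 CPM on average, log2 fold change 1.63, SE 0.65, adjusted p = 0.0481), with overlap between the groups. The other 10 did not pass at this depth.

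Other genes of the splicing pathway were counted from lists that hold no member. Of 54 tested genes for other spliceosome proteins, 44 fell and 4 rose, with a median of −0.60, and 5 (9.26%) were lower by at least 2-fold. ALYREF, an mRNA export adaptor of the TREX complex, was at 147, 166 and 152 CPM in GM and 61.2, 58.1 and 63.4 CPM in DM (−1.35, SE 0.07, adjusted p = 6.67e-08). DDX46, a helicase that acts with U2, fell from 125, 126 and 128 CPM to 53.5, 58.5 and 67.0 CPM (−1.08). The 4 that rose were SYF2, AQR, SLU7 and SNW1, with log2 fold changes of 0.69, 0.45, 0.41 and 0.37.

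Of 23 tested genes for the assembly of Sm and LSm rings, 20 fell and 3 rose, with a median of −0.75. Of these, 4 (17.4%) were lower by at least 2-fold. LSM7, a subunit of the LSm rings, fell from 75.1, 85.5 and 77.2 CPM to 27.7, 23.3 and 28.3 CPM (−1.59), and WDR77, a partner of the methyltransferase that modifies Sm proteins, had a log2 fold change of −1.14. GEMIN8, GEMIN2 and LSM10 rose, with log2 fold changes of 0.53, 0.25 and 0.24. Of 18 genes for SR-related proteins, SR protein kinases and their import, 12 fell and 2 rose, with a median of −0.34. Only 1 (5.56%) was lower by at least 2-fold. TRA2B, a splicing activator related to SR proteins, fell from 232, 223 and 231 CPM to 107, 114 and 112 CPM (−1.04), and SRRM1 had a log2 fold change of −0.98. TRA2A, in the same list, averaged 68.7 CPM in GM and 69.3 CPM in DM and did not pass (0.01, adjusted p = 0.882). The 2 that rose were CLK4 (0.86) and CLK1 (0.65). The CLK kinases phosphorylate SR proteins in the nucleus, and the other members of the family in the list, CLK3 (−0.41) and CLK2 (−0.29), fell. SRPK1 (−0.39), a kinase of SR proteins in the cytoplasm, also fell. The other SRPK genes in the list, SRPK2 (0.13, adjusted p = 0.125) and SRPK3 (0.04, adjusted p = 0.816), did not pass. CLK1 was at 41.2, 41.2 and 44.9 CPM in GM and 53.7, 69.9 and 75.6 CPM in DM, without overlap. Over the 95 tested genes of the 3 lists, 76 fell (80.0%, against 31.4% of all tested genes), 9 rose and 10 did not pass. By at least 2-fold 10 fell, or 10.5%, which is near the 10.3% of all tested genes. The genes that rose, and CLK2, CLK3, SRPK1, SRPK2, SRPK3 and TRA2A, were named after their values were seen.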

How the data were processed

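Genes and mRNA transcripts of 3 GM and 3 DM samples were analysed. The authors deposited raw counts per feature, made from reads aligned with HISAT2 to a buffalo genome per the paper's methods. The paper's supplement names a buffalo assembly and its annotation, whereas the tables list cattle Ensembl identifiers with coordinates of an unnamed build. The counter and its use of strand are not given in the sources used here. The submitters' processing notes also name Bowtie 0.12.2 and the mouse builds mm8 and mm9, with no role. The RPKM values were computed by the authors from these counts and the deposited Length column. The authors' lists of log2 fold changes, p-values and q-values were not used, and no sample column was unmapped.

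Counts were tested in R 4.3.3 with edgeR 4.0.16 (TMM, glmQLFit and glmQLFTest) over each whole table, leaving out features with a summed count under 10, with Benjamini-Hochberg adjustment. SEs were taken from the F statistic. CPM and shares were computed with Python 3.11.15, pandas 2.3.3 and numpy 2.4.6. On simulated counts for the gene comparison, with 200 of 15576 genes changed, 195 were recovered at 4-fold and 128 at 1.5-fold by adjusted p. False calls by adjusted p were 17 and 15. With the 2-fold rule added, 195 and 2 were recovered. The simulation changed far fewer genes than the 63.0% that passed in the data, so it does not cover a shift of that extent.

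The members and lists were chosen with earlier results of these data known. Genes were named by rule: members lower by at least 2-fold, the 3 largest changes and the 2 highest RPKM in each role group, members opposite to their group, and the 2 largest changes in each pathway list. The remaining members and the pathway genes outside the rule were named after their values were seen. Alternatives were DESeq2 1.42.0, library size alone, other filters on low counts (none, filterByExpr, and the study's RPKM rule, a minimum of 1 in over 50% of the samples), a test against a fold of 2, a replicate block and each sample left out. Whether samples of the same replicate number share a culture or fetus is not given, and the main fit did not pair them. The correlations of their deviations, given below, do not settle this. Limits from counts cover counting error only.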

Additional observations from a re-analysis of the deposited data

How the results depend on the processing

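By the 2-fold rule 19 members were lower, and 1606 of all genes were lower and 2330 higher. Tested against a fold change of 2, the counts were 8 members, 895 genes lower and 1398 higher. With the RPKM rule and the usual 2-fold rule they were 16 members (without HNRNPM, SF3B3 and SRSF3), 965 genes lower and 1232 higher, and 4 members were higher at an adjusted p under 0.05. With library size alone 21 members were lower by at least 2-fold (HNRNPA3 and SF3A1 added), 1 member and 1 of the member transcripts were higher, and the median log2 fold change of all genes was −0.07. Leaving out each library gave 17 to 19 members lower by at least 2-fold, 39 to 40 lower by adjusted p, and 1 to 2 transcripts higher, 1 without GM replicate 2. Over all genes, 1471 to 1631 were then lower by at least 2-fold and 4415 to 5053 by adjusted p. Without the 50 most abundant genes the ratios of shares were 0.595 (all members), 0.576 (hnRNP), 0.610 (SR), 0.560 (Sm core), 0.441 (U1 and U2) and 0.712 (SF3).

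On the log2 scale SRSF11 was at 0.0293 with the RPKM rule and from −0.0454 to 0.0257 (without DM replicate 2) with a library left out, SRSF12 from −0.285 to 0.113 (without DM replicate 3), and SRSF5 at −0.0092 with library size alone. With the RPKM rule HNRNPH2 (adjusted p = 0.0195) and SRSF5 (0.0332) passed, and with library size alone SNRPN did (0.0189). SF3B6 did not pass with DESeq2 (0.0578), filterByExpr (0.0549) or the RPKM rule (0.136). The cause was not tested. Samples of the same number did not deviate together (correlations of −0.0218 to −0.0076), and with a replicate block 39 members were lower, 2 higher and 19 lower by at least 2-fold, SF3B6 no longer passing (0.0597). Over all genes the block gave 4778 lower, 4761 higher and 1563 lower by at least 2-fold. Genes near 6 CPM, SRSF12, the SNRPE row on chromosome 19 and the SNRPG row on chromosome 6, had the largest standard errors of the tested members.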
